A study of Homo sapiens with 7 samples.

Results

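Levels of 6 genes of the natriuretic peptide system were followed in single cells of a cardiac differentiation of H1, a long-established line of human embryonic stem cells. The genes are NPPA and NPPB (peptides), CORIN (the activating protease), NPR1 and NPR2 (receptors that make cyclic GMP) and NPR3 (the clearance receptor). They were chosen by name, and all 6 are among the 21262 genes listed in all 3 single-cell count tables. The 3 libraries were day 11 of differentiation, whose labels give no treatment, day 15 with the vehicle DMSO, and day 15 with CHIR. That name usually stands for a GSK3 blocker, which turns on canonical Wnt signalling. No dose or time of addition was given, every library came from the same cell line, and each group was 1 library. By its title, the study addresses how Wnt signalling gives rise to muscle of the atrioventricular canal, the slow-conducting tissue between atria and ventricles, so the comparison of CHIR with DMSO is the central one. The 4 chromatin samples of day 15 CHIR cells were not analysed here.

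The libraries held 5683 cells at day 11, 4015 with DMSO and 5607 with CHIR, with 75906387, 65675862 and 81076689 counted transcripts (unique molecular identifiers, UMIs) and medians of 12689, 15250 and 12687 UMIs per cell. Of the cell barcodes, 6 were shared by day 11 and DMSO, 3 by day 11 and CHIR and 4 by DMSO and CHIR. Cells were sorted into classes by their summed share of marker UMIs per 10000. In this order of libraries, 3276, 1818 and 1332 cells passed only the muscle gate, 1244, 1629 and 3665 only the mesenchymal gate, 47, 18 and 30 only the endothelial gate, and 114, 18 and 5 only the endoderm gate. All 10 muscle markers stood at 20 CPM (counts per 1000000 UMIs) or more in the muscle cells of every library, as did all 8 mesenchymal, all 8 endothelial and all 7 endoderm markers in their own classes. The gates used these same markers, so their height in their own class does not test the class names. Of the 10 muscle markers, 7, 4 and 4 also reached 20 CPM in mesenchymal cells. Of the 8 mesenchymal markers, 4 did so in the muscle cells of every library. By these gates the cells labelled cardiac were a mixture, with muscle cells at 57.7%, 47.9% and 23.8%. A further 832, 216 and 408 cells passed both the muscle and the mesenchymal gates and were kept apart.

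Heart muscle secretes natriuretic peptides as prohormones. NPPA encodes atrial natriuretic peptide, NPPB encodes brain natriuretic peptide, and the membrane protease corin cuts the atrial prohormone into its active form. The peptides bind NPR1, whose inner domain makes cyclic GMP, whereas NPR2 answers mainly to C-type natriuretic peptide and NPR3 lacks the cyclase and removes peptides from the outside of the cell. In the embryonic heart NPPA marks the working muscle of the chambers and is kept low in the atrioventricular canal, where the T-box repressors TBX2 and TBX3 are made.

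By the RefSeq annotation of GRCh38.p14, NPPA (chr1:11845709-11847783) and NPPB (chr1:11857464-11858945) are neighbours on chromosome 1. CORIN (chr4:47594001-47838067) spans 244067 bases and NPR3 (chr5:32690872-32791720) spans 100849 bases, whereas NPPA spans 2075 and NPPB 1482. NPR1 (chr1:153678688-153693992) spans 15305 bases and NPR2 (chr9:35791591-35809731) spans 18141. The RefSeq promoter table held entries for 5 of the 6 genes, NPPB being the exception. The 250 bases before the start are shown for the 3 genes on which the CHIR comparison turns, NPPA and CORIN, which stood lower with CHIR, and NPR3, which stood higher and has 2 annotated starts that these counts cannot tell apart. Each runs 5′ to 3′ on the strand of the gene, at chr1:11847784-11848033 (minus strand), chr4:47838068-47838317 (minus strand), chr5:32690622-32690871 and chr5:32710399-32710648 (both plus strand). Capitals mark matches to the motifs described after the sequences.
NPPA: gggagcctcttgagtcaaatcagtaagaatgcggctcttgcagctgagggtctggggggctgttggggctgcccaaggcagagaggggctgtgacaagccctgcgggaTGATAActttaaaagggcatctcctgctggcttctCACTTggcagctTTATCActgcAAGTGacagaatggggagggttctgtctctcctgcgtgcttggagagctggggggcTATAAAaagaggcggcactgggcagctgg
CORIN: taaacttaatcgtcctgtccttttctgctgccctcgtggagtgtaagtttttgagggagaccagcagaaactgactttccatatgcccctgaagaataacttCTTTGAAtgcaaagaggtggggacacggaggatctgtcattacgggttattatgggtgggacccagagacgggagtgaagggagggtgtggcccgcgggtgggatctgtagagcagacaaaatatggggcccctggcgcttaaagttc
NPR3 start 1: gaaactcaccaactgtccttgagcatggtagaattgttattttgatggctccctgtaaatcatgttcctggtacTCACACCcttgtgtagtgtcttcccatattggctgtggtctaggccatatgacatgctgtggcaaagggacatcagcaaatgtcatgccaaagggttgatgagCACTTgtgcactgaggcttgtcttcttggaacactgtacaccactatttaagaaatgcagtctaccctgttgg
NPR3 start 2: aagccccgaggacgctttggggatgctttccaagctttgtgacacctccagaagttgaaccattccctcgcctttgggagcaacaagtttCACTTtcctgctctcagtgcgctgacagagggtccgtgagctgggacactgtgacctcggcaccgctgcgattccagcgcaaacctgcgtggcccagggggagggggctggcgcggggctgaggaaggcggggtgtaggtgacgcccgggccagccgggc

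The motifs searched on both strands were those of GATA factors (AGATAA or TGATAA), the core of NKX2-5 sites (AAGTG), the T-box half-site (GGTGTGA), TCF/LEF sites of Wnt signalling (CTTTGAA and its variants ending in AT, TA or TT) and the CArG box, with the TATA box (TATAAA) on the strand of the gene only. The NPPA window held 2 GATA matches, at 142 to 137 and 95 to 90 bases before the start, 2 matches to the NKX2-5 core, at 107 to 103 and 85 to 81, and a TATA box at 29 to 24. The CORIN window held 1 TCF/LEF match, at 148 to 142. At NPR3, the window of start 1 held 1 T-box half-site, at 176 to 170, and 1 NKX2-5 core, at 73 to 69, and that of start 2 held 1 NKX2-5 core, at 160 to 156. No matches overlapped. Among 35114 annotated windows of the same length, 14.6% held a GATA match, 37.6% the NKX2-5 core, 2.76% the T-box half-site, 12% a TCF/LEF match, 6.80% a TATA box and 1.16% a CArG box. These matches describe the letters only.

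NPPA and CORIN were muscle transcripts in every library, NPR1 and NPR3 were transcripts of mesenchymal and endothelial cells, NPR2 was low in all classes, and NPPB lay mainly outside muscle at day 11. Of the UMIs of NPPA, muscle cells held 90.2% at day 11, 96.8% with DMSO and 74.7% with CHIR, and for CORIN the shares were 90.4%, 91.1% and 79.0%. With CHIR most of the rest lay in cells past both the muscle and the mesenchymal gates, at 20.8% for NPPA and 17.5% for CORIN. For NPPB the muscle share was 6.03%, 30.3% and 43.4%. Cells past both gates held 27.4%, 5.37% and 17.0% of NPPB UMIs, at 864, 114 and 21.9 CPM. Mesenchymal cells held 69.8%, 89.3% and 80.9% of the UMIs of NPR1 and 45.3%, 72.2% and 87.0% of those of NPR3. Set against mesenchymal cells of the same library, muscle cells had 2 of the 6 genes higher and 3 lower by 1.5-fold or more at day 11 (39.6% and 19.8% of all genes), 3 higher and 2 lower with DMSO (35.4% and 21.6%), and 3 higher and 2 lower with CHIR (25% and 25.1%). With 1 library a group there is no replicate check and no test, and every interval is a 95% interval that covers counting error only.

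**Figure D1:**
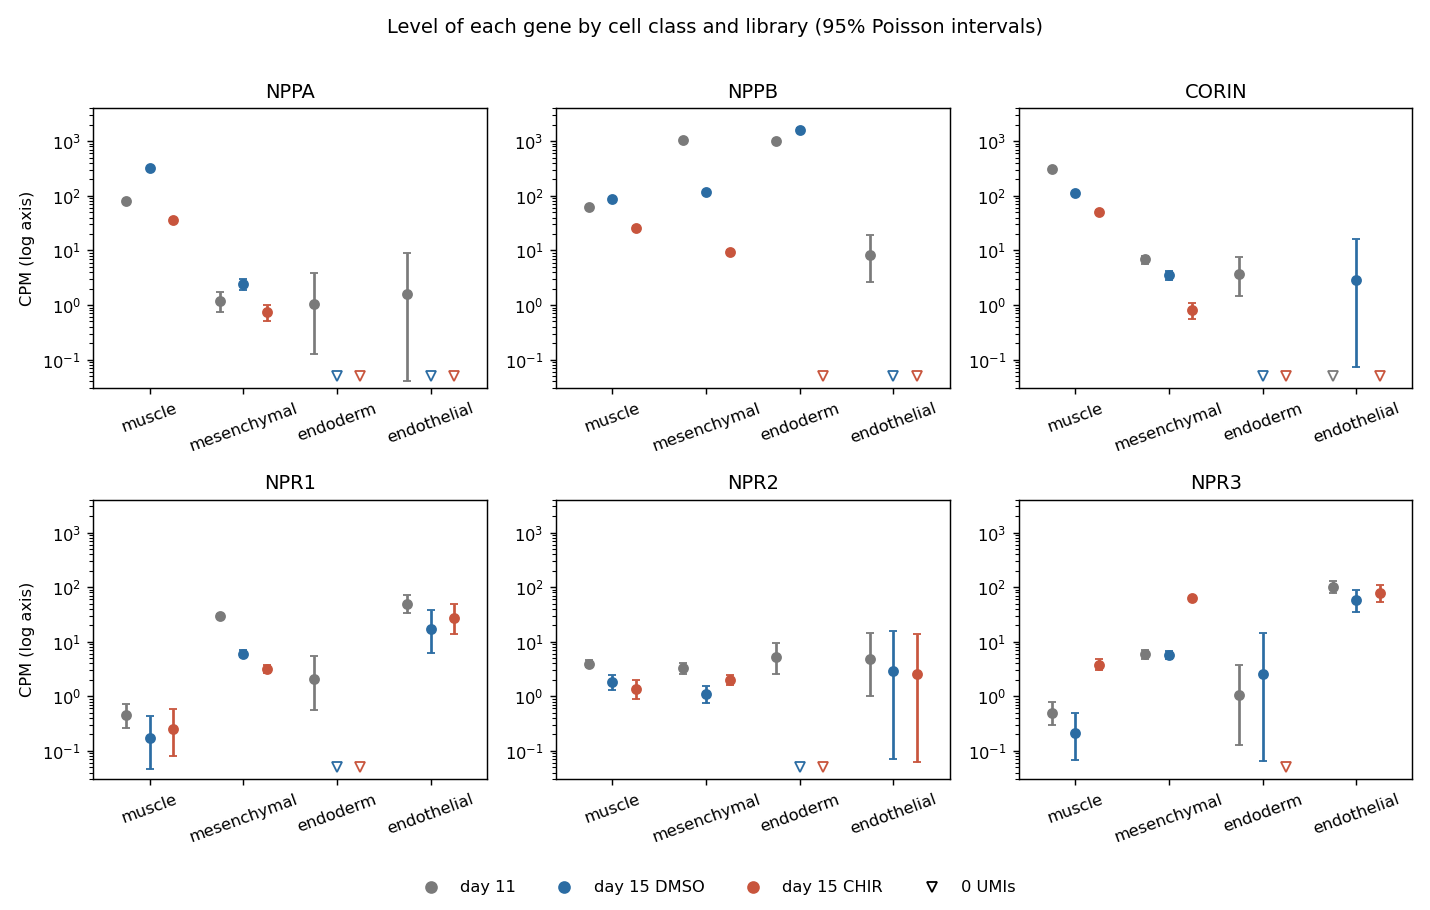
Level of each gene in CPM (log axis) in 4 cell classes, 1 point per library with its exact 95% Poisson interval; open triangles at the foot of a panel mark 0 UMIs. NPPA and CORIN stand highest in muscle in every library, NPR1 and NPR3 stand higher in mesenchymal and endothelial cells than in muscle, and NPPB reaches 1035 CPM in day 11 mesenchymal cells.

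**Figure D2:**
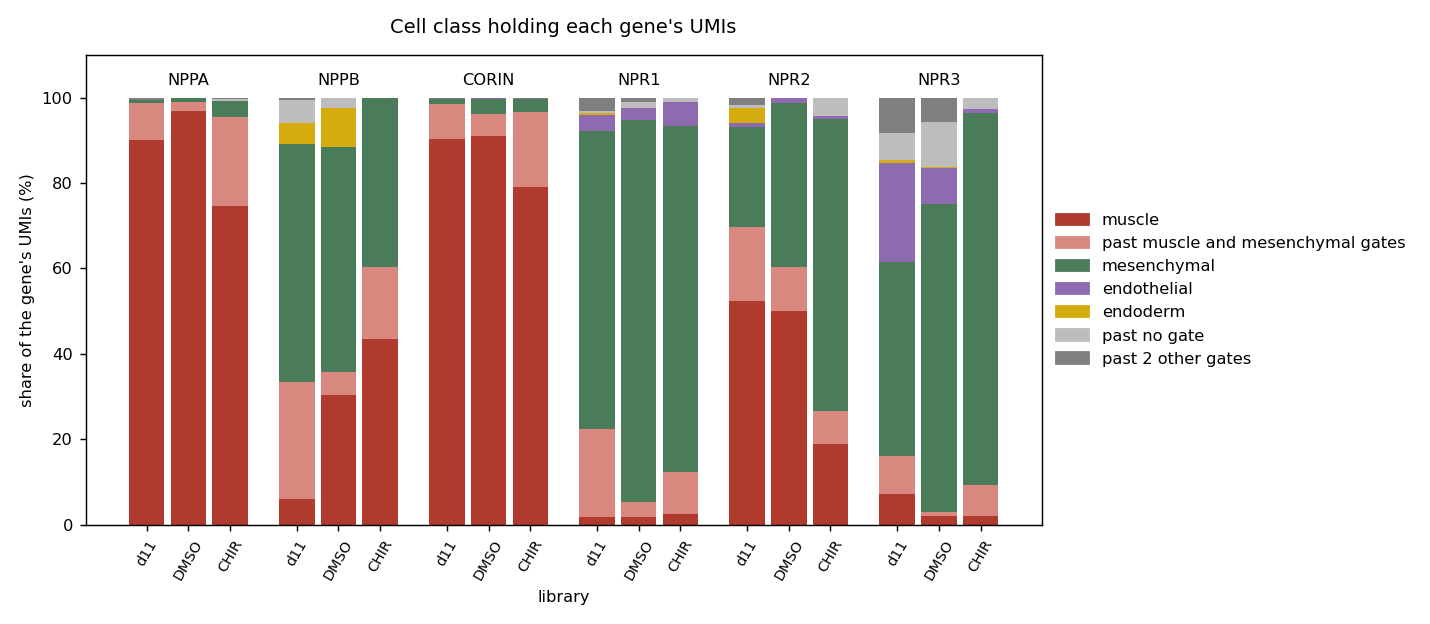
Share of each gene's UMIs (%) held by each cell class, 1 bar per library. Muscle holds 74.7% or more of NPPA and CORIN in all 3 libraries, whereas its part of NPPB is 6.03% at day 11 and 43.4% with CHIR.

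NPPA stood at 80.7 CPM (77.8 to 83.6) in muscle cells at day 11, at 323 (316 to 330) with DMSO and at 35.7 (33.2 to 38.5) with CHIR. The DMSO library was the highest and the CHIR library the lowest, and no 2 intervals overlapped. NPPA was 9.04-fold lower with CHIR than with DMSO (8.37 to 9.77). It was 4.00-fold higher with DMSO than at day 11 (3.84 to 4.18) and 2.26-fold lower with CHIR than at day 11 (2.08 to 2.45), a difference that was 1.45-fold, and so no longer called, with TMM scaling. At least 1 UMI of NPPA was found in 23.9%, 40.2% and 22.7% of muscle cells, and in 17.3%, 30.9% and 12.1% once each cell was thinned to 5000 UMIs. In mesenchymal cells the share was 1.29%, 3.50% and 0.982%, at median depths of 16240.5, 17445 and 11778 UMIs against 11462, 12801.5 and 14282.5 in muscle.

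The NPPA found in mesenchymal cells was weighed against free RNA, which is captured along with every cell. In mesenchymal cells it stood at 1.16, 2.43 and 0.733 CPM, which is 1.44%, 0.752% and 2.05% of its muscle level. The median over the 10 muscle markers, measured the same way, was 4.33%, 2.36% and 2.06%. The muscle gate itself holds these markers down in mesenchymal cells, so their median is not an independent measure of free RNA. Single mesenchymal cells held 5 of 24 NPPA UMIs at day 11 and 9 of 74 with DMSO. These mesenchymal values are read as background, but whether free RNA gave them was not tested. Among the muscle cells themselves NPPA was unevenly spread, since the tenth of cells richest in it held 79.9%, 77.8% and 74.6% of its UMIs, and 1 DMSO cell alone carried 570 of 7643. Without that cell the DMSO level was 299 CPM.

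NPPB was, at day 11, mainly a transcript of cells outside the muscle class. Mesenchymal cells held it at 1035 CPM (1021 to 1049) at day 11, 119 (115 to 123) with DMSO and 9.48 (8.64 to 10.4) with CHIR, an order in which every step exceeded the intervals. Muscle cells held it at 61.1 CPM (58.7 to 63.7), 88.3 (84.5 to 92.1) and 25.8 (23.6 to 28.1). Endoderm cells reached 1014 CPM (969 to 1060) at day 11, where the interval overlapped that of mesenchymal cells, and 1599 (1476 to 1730) in 18 DMSO cells. Endoderm cells rich in smooth muscle markers numbered 7 of 114 at day 11, with 810 of 1935 UMIs. With DMSO they numbered 3 of 18, with 489 of 621. The other 107 cells at day 11 held 1125 UMIs, and 31.6% of all endoderm cells had at least 1 UMI then. The endoderm cells not rich in these markers stood at 625 CPM at day 11 and 392 with DMSO. Endothelial cells had 5 UMIs at day 11 (8.07 CPM) and 0 in both day 15 libraries, which allows up to 8.59 CPM with DMSO and 7.53 with CHIR.

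Within mesenchymal cells NPPB followed smooth muscle marker genes, a split that was chosen after the levels of NPPB were seen. Cells with at least 40 UMIs of MYH11, ACTA2, TAGLN, CNN1 and LMOD1 per 10000 made up 26.9% of mesenchymal cells at day 11 (24.5% to 29.5%), 11.6% with DMSO (10.1% to 13.3%) and 1.96% with CHIR (1.54% to 2.47%). They held 93.3%, 89.3% and 30.9% of the mesenchymal NPPB UMIs. NPPB stood at 3094 CPM in them against 101 in the other mesenchymal cells at day 11, at 716 against 15.0 with DMSO, and at 101 against 6.75 with CHIR. The ratio was 30.6 (29.0 to 32.3), 47.7 (43.0 to 53.2) and 14.9 (12.2 to 18.2), and it was also above 1 at cuts of 20 and 80, where it lay between 7.99 and 43.5. Without the cell richest in NPPB, which with DMSO held 1145 of 3637 UMIs, the DMSO ratio was 31.2. All 5 of these markers were detected in the mesenchymal cells of each library, where they summed to 4359, 2566 and 522 CPM. TAGLN, an actin-binding protein, led these markers at 9905, 8581 and 5721 CPM in the marker-rich cells. The defining smooth muscle myosin MYH11 was at only 3.10, 1.32 and 2.10 CPM there, so the cells are named by their leading genes and not as smooth muscle.

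**Figure D3:**
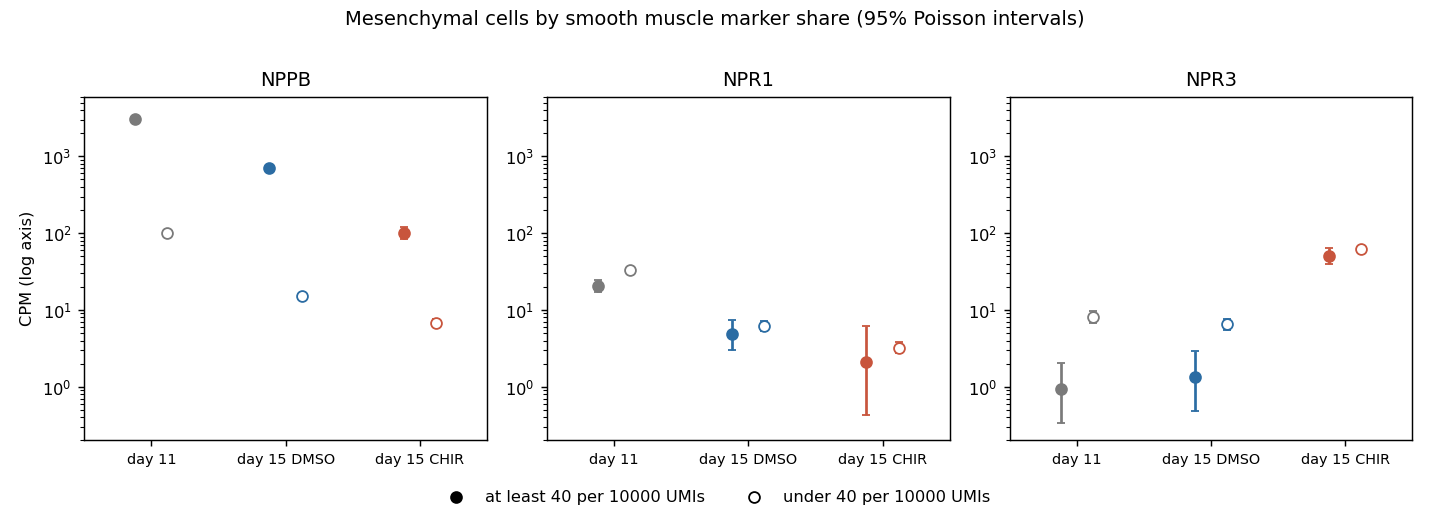
CPM (log axis) of NPPB, NPR1 and NPR3 in mesenchymal cells with at least 40 smooth muscle marker UMIs per 10000 (filled) or fewer (open), 1 pair per library, with exact 95% Poisson intervals. NPPB is 14.9 to 47.7 times higher in the filled points, whereas NPR3 is lower there at day 11 and with DMSO and stands at 50.4 against 63.0 with CHIR.

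NPPB was 12.6-fold lower in mesenchymal cells with CHIR than with DMSO (11.4 to 13.9) and 8.68-fold lower with DMSO than at day 11 (8.38 to 8.99). Both kinds of mesenchymal cell had less of it. With CHIR against DMSO it was 7.10-fold lower among the marker-rich cells (6.01 to 8.45) and 2.22-fold lower among the others (1.91 to 2.58). Without the richest mesenchymal cell of each library these folds were 4.65 and 3.11. With DMSO against day 11 it was 4.32-fold (4.17 to 4.49) and 6.74-fold (6.02 to 7.56) lower, or 6.20-fold and 6.74-fold without those cells. The order of the 2 kinds of cell thus rested partly on single cells. The share of marker-rich cells was highest at day 11 and lowest with CHIR, as was the NPPB level of the class, and its part in these ratios was not tested.

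In muscle cells NPPB rested on few cells. At day 11, 28 of 3276 muscle cells were rich in smooth muscle markers and held 1729 of 2315 NPPB UMIs. With DMSO, 28 of 1818 held 1091 of 2089, and 1 cell held 982, so that the DMSO level without that cell was 46.8 CPM. The part of these few cells in the muscle values was not tested. With CHIR, 17 such cells held 3 of 512 UMIs. NPPB was 3.42-fold lower in muscle with CHIR than with DMSO (3.11 to 3.78), 1.66-fold lower without the marker-rich cells and 1.92-fold lower without the richest cell of each library. DMSO against day 11 gave a ratio of 1.44 (1.36 to 1.53), which became 2.74 without those cells, 0.889 without the richest cell of each library and 0.355 when cells past 2 gates were kept. CHIR against day 11 gave NPPB 2.37-fold lower (2.15 to 2.62), and a ratio of 1.65, the other way, without the marker-rich cells. The muscle level of NPPB across days therefore has no settled direction, whereas its lower CPM with CHIR than with DMSO kept its direction. The share of muscle cells with a UMI was not lower with CHIR, at 12.4% against 10.2% with DMSO, or 6.54% against 6.1% at 5000 UMIs. Set against the mesenchymal level, muscle NPPB stood at 5.90% at day 11, where the median of 8 mesenchymal markers was 6.06% (0.426% to 143%), and at 74.0% with DMSO and 272% with CHIR, where it was 5.50% and 6.45%. At least 1 UMI was found in 8.55%, 10.2% and 12.4% of muscle cells and in 4.64%, 6.1% and 6.54% at 5000 UMIs per cell, against 34.2%, 9.94% and 2.67% of mesenchymal cells.

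CORIN stood at 307 CPM (301 to 312) in muscle at day 11, 114 (109.9 to 119) with DMSO and 50.7 (47.6 to 53.9) with CHIR. Each library lay below the one before, and no 2 intervals overlapped. CORIN was 2.25-fold lower with CHIR than with DMSO (2.09 to 2.42), 2.69-fold lower with DMSO than at day 11 (2.58 to 2.80) and 6.05-fold lower with CHIR than at day 11 (5.67 to 6.46). It was detected in 65.3%, 65.6% and 48.4% of muscle cells, and in 55.9%, 40.5% and 20.4% at 5000 UMIs per cell. Mesenchymal cells had it in 8.76%, 5.28% and 0.982%. Its mesenchymal level was 2.23%, 3.07% and 1.57% of that in muscle, within the range of the muscle markers in each library. Unlike NPPA, CORIN was spread widely over muscle cells, and the tenth of cells richest in it held 35.9%, 34.6% and 39.2% of its UMIs.

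Gene length moved with the day 11 comparisons, which touches CORIN, and less strongly with CHIR against DMSO. Over genes in muscle, Spearman's correlation of length and ratio was -0.62 for DMSO against day 11 and 0.18 for CHIR against DMSO. In muscle, genes of at least 100 kb had a median log2 ratio of -1.93 with DMSO against day 11 and genes under 5 kb one of 0.17, and 69.6% of the long genes lay at or below CORIN. With CHIR against day 11 the long genes had a median of -1.84, and 31.6% lay at or below CORIN. With CHIR against DMSO the long genes had a median of 0.15, and 8.05% lay at or below CORIN. Genes under 5 kb had a median of -0.40 there. In mesenchymal cells the same comparison gave 0.41 for the long genes and -0.39 for the short ones. Whether length or its counting had a part in the day 11 ratios of CORIN was not tested. NPPA and NPPB are short genes.

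NPR1, the receptor of the atrial and brain peptides, was nearly absent from muscle. Muscle cells gave 17, 4 and 5 UMIs, or 0.449, 0.169 and 0.252 CPM. Mesenchymal cells held 29.3 CPM (27.1 to 31.8) at day 11, 6.003 (5.16 to 6.94) with DMSO and 3.20 (2.72 to 3.74) with CHIR. In endothelial cells the levels were 50.04 (34.0 to 71.0), 17.2 (6.31 to 37.4) and 27.6 CPM (13.8 to 49.4), from 31, 6 and 11 UMIs, and these intervals overlapped one another. The endothelial level lay above the mesenchymal one without overlap at day 11 and with CHIR, whereas with DMSO the intervals overlapped, and muscle lay lowest of the 3 classes in each library. Among mesenchymal cells NPR1 was 4.89-fold lower with DMSO than at day 11 (4.14 to 5.80) and 1.88-fold lower with CHIR than with DMSO (1.51 to 2.34). It was lower in the cells rich in smooth muscle markers at day 11, at 20.5 against 33.4 CPM (ratio 0.614, 0.502 to 0.746), the reverse of NPPB. NPR1 in muscle was 1.53%, 2.82% and 7.88% of the mesenchymal level. The mesenchymal markers ranged from 0.426% to 143%, from 0.728% to 118% and from 3.67% to 24.6%. That range is too wide to place NPR1, and the mesenchymal gate itself holds these markers down in muscle cells. A single day 11 muscle cell held 5 of the 17 UMIs, and the source of the muscle UMIs was not tested.

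NPR2, the receptor of C-type natriuretic peptide, was low in every class. Muscle cells held it at 3.99 CPM (3.38 to 4.68), 1.82 (1.31 to 2.45) and 1.36 (0.896 to 1.98), and mesenchymal cells at 3.24 (2.51 to 4.12), 1.08 (0.745 to 1.52) and 1.97 (1.601 to 2.41). The intervals of muscle and mesenchymal cells overlapped in all 3 libraries, and the muscle level was 1.68 times the mesenchymal one with DMSO (1.04 to 2.73). With CHIR against DMSO the ratio was 0.748 in muscle (0.444 to 1.24), from 27 and 43 UMIs, a difference that was not detectable at this depth. In mesenchymal cells it was 1.82 (1.22 to 2.80), from 97 and 33 UMIs. Its ligand gene NPPC was also sparse, with 10 UMIs in mesenchymal cells with CHIR and 106 with DMSO, a level 17.1-fold lower (8.93 to 36.7).

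NPR3, which clears the peptides, was the member with the highest ratio of CHIR to DMSO in mesenchymal cells. Mesenchymal cells held it at 5.86 CPM (4.86 to 7.001) at day 11, 5.71 (4.89 to 6.62) with DMSO and 62.6 (60.5 to 64.9) with CHIR. Day 11 and DMSO did not differ beyond their intervals, and CHIR stood apart from both. NPR3 was 11.0-fold higher with CHIR than with DMSO (9.42 to 12.9). It was found in 3.78%, 4.17% and 31.9% of mesenchymal cells, and in 1.62%, 1.78% and 20.1% at 5000 UMIs per cell. With CHIR against DMSO the ratio was 38.1 in the cells rich in smooth muscle markers (16.7 to 107), from 72 and 6 UMIs, and 9.73 in the others (8.33 to 11.4). By a split chosen after these levels were seen, mesenchymal cells were divided at the median for POSTN, a matrix gene of cushion and valve cells. At day 11 and with DMSO most cells lacked POSTN, so 213 and 546 cells with a UMI stood against 1031 and 1083 without. With CHIR 1832 cells stood against 1833. Cells above the median had 7.68 CPM of NPR3 against 5.42 in the rest at day 11 (ratio 1.42, 0.911 to 2.16). The values were 2.28 against 7.89 with DMSO and 58.2 against 66.8 with CHIR. The tenth of CHIR mesenchymal cells richest in NPR3 held 62.2% of its UMIs.

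Endothelial cells carried NPR3 in all 3 libraries, at 100.1 CPM (76.7 to 128) at day 11, 57.3 (35.0 to 88.5) with DMSO and 77.8 (52.9 to 110.5) with CHIR. These intervals overlapped one another, and with CHIR the endothelial interval also held the mesenchymal level. In muscle NPR3 gave 19, 5 and 76 UMIs, or 0.502, 0.211 and 3.83 CPM, an 18.1-fold higher level with CHIR than with DMSO (7.43 to 57.4). That CHIR value was 6.11% of the mesenchymal level, and the median over the 8 mesenchymal markers was 6.45% (3.67% to 24.6%). The NPR3 counted in CHIR muscle cells was close to the median share of those markers, which the mesenchymal gate itself holds down in muscle cells. It is read here neither as expression nor as background. A single muscle cell of 13233 UMIs held 11 of the 76 UMIs. Whether free RNA, doublets or expression gave these UMIs was not tested. Mesenchymal cells made up 65.4% of the CHIR library against 42.9% of the DMSO library.

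Read against all genes, the counts of members called were as follows. In muscle, CHIR against DMSO gave 1 of 5 measured members at least 1.5-fold higher and 3 lower (NPPA, NPPB and CORIN). The higher one was NPR3, whose source in muscle cells was not tested. Of 15704 genes, 20.4% were called higher and 26.2% lower. NPR1 had fewer than 20 UMIs. DMSO against day 11 gave 1 of 6 higher (NPPA) and 4 lower (CORIN and the 3 receptors), with 8.28% of genes higher and 53.4% lower. Of these receptors, NPR1 rested on 4 and 17 UMIs and NPR3 on 5 and 19. CHIR against day 11 gave 1 of 6 higher (again NPR3) and 5 lower, with 9.29% and 56.5%. The lower calls against day 11 are near that background. In mesenchymal cells CHIR against DMSO gave 2 of 6 higher (NPR2 and NPR3) and 4 lower (33% and 24.2% of genes). There DMSO against day 11 gave 1 higher (NPPA, from 74 and 24 UMIs) and 4 lower (8.34% and 51.3%). CHIR against day 11 gave 1 higher (NPR3) and 5 lower (11.8% and 48.1%). The lower calls include CORIN in each of these 3, and NPPA in both with CHIR. Mesenchymal NPPA and CORIN, like muscle NPR1, stood low, and their source was not tested. The 3 comparisons share libraries and are not independent. A ratio within a class cannot separate fewer transcripts per cell from fewer cells that carry the transcript.

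**Figure D4:**
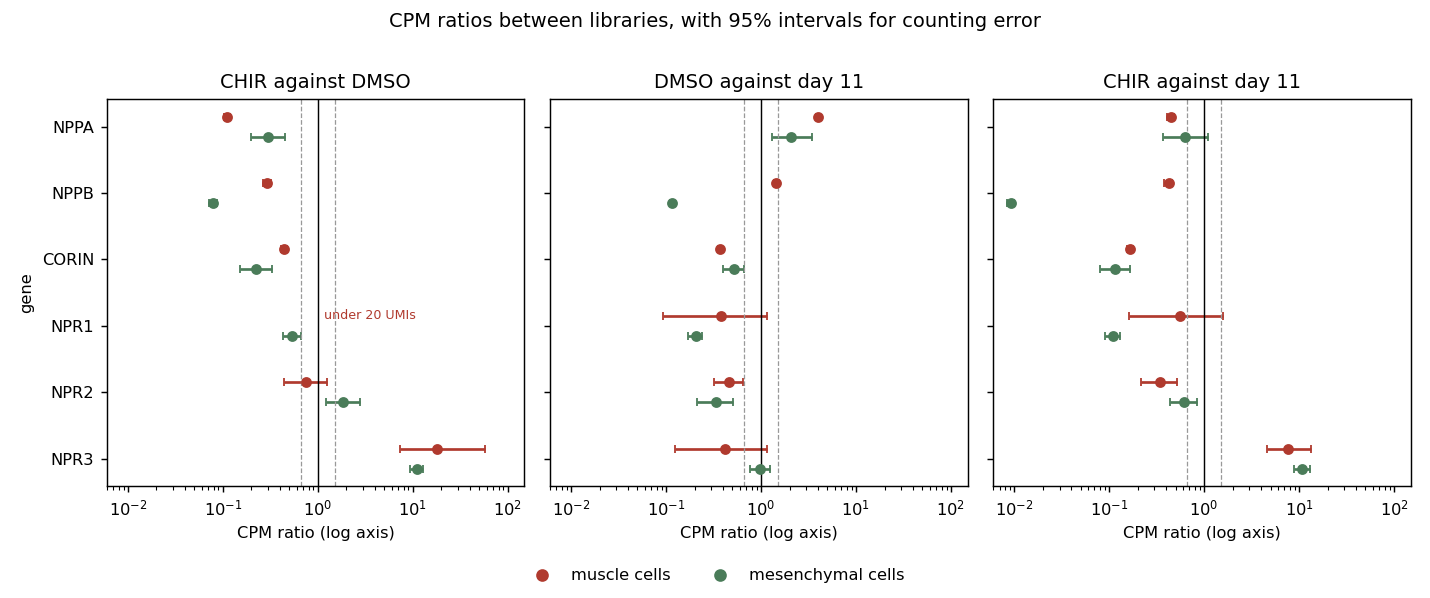
CPM ratio (log axis) of each gene in the 3 library comparisons, for muscle and mesenchymal cells, with exact 95% intervals for counting error; dashed lines mark 1.5-fold. With CHIR against DMSO the points of NPPA, NPPB and CORIN lie left of the dashed lines and those of NPR3 right of them, and in the middle panel NPPB lies on opposite sides of 1 in the 2 classes.

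Muscle cells were also divided by genes of chamber and canal muscle, each division within 1 library. Cells with a UMI of MYL2 (ventricular light chain) or IRX4 (a ventricular factor) had 2.30-fold more NPPA than the other muscle cells at day 11 (2.13 to 2.48), at 116 against 50.3 CPM. At day 15 the direction was opposite, with NPPA 2.52-fold lower in such cells with DMSO (187 against 470 CPM) and 1.81-fold lower with CHIR (29.5 against 53.3 CPM). CORIN was higher in the MYL2 or IRX4 cells in all 3 libraries, by 2.83-fold (2.72 to 2.95), 1.49-fold (1.38 to 1.61) and 1.25-fold (1.08 to 1.46). NPPB was 4.19-fold and 4.78-fold lower in them at day 11 and with DMSO, and at 27.3 against 21.4 CPM with CHIR (ratio 1.28, 1.03 to 1.59). Without the 1 DMSO cell that held 982 UMIs of NPPB, the DMSO fold was 2.03.

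NPPA differed little between muscle cells with and without the T-box repressors. Cells with a UMI of TBX2 or TBX3 had NPPA at 73.9 against 89.5 CPM at day 11 (ratio 0.825, 0.768 to 0.886), at 324 against 321 with DMSO (ratio 1.01, 0.964 to 1.06) and at 36.0 against 34.6 with CHIR (ratio 1.04, 0.864 to 1.26). Each of these differences was under 1.5-fold. Muscle cells with such a UMI numbered 1797 of 3276, 907 of 1818 and 1021 of 1332, a split that also follows depth. NPPA stood lower with CHIR than with DMSO on both sides of it. CORIN likewise had ratios of 0.952, 1.00 and 1.16. NPPB was lower in TBX2 or TBX3 cells at day 11 (2.45-fold) and with DMSO (3.96-fold), at 37.5 against 91.7 and 35.9 against 142 CPM, and higher in them with CHIR, at 27.2 against 20.0 CPM (ratio 1.36, 1.07 to 1.75). Without the 1 DMSO cell that held 982 UMIs the DMSO fold was 1.62.

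**Figure D5:**
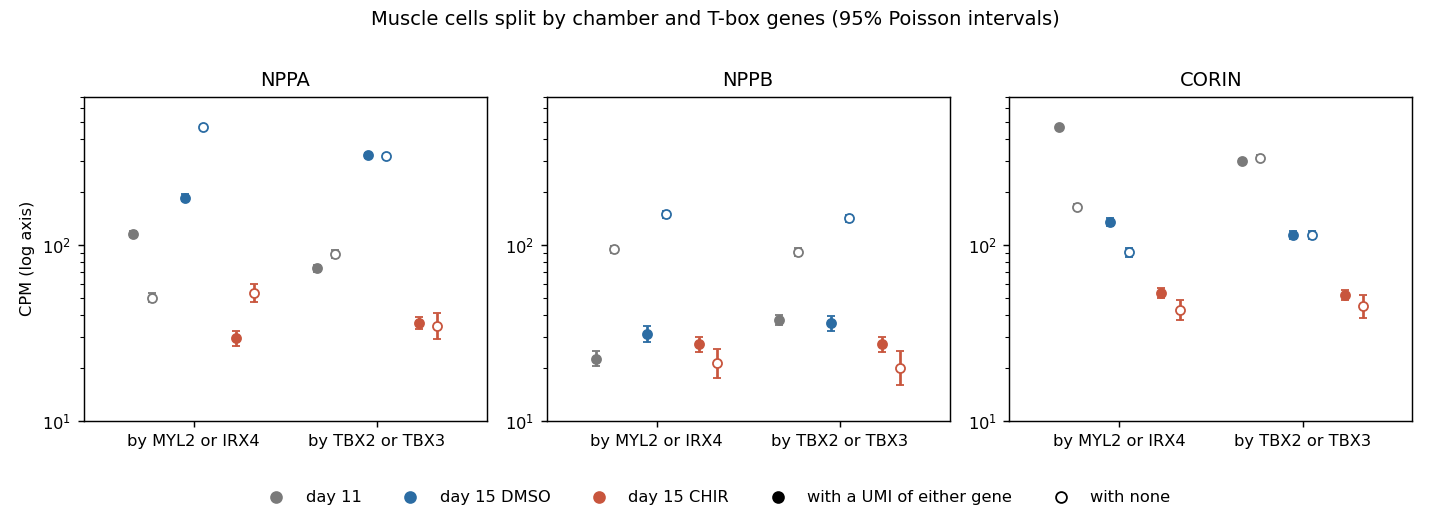
CPM (log axis) of NPPA, NPPB and CORIN in muscle cells with a UMI of MYL2 or IRX4, or of TBX2 or TBX3 (filled), against muscle cells with none (open), by library, with exact 95% Poisson intervals. NPPA changes side between day 11 and day 15 in the MYL2 or IRX4 split and is nearly level in the TBX2 or TBX3 split.

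In the DMSO library 73 muscle cells carried a UMI of SHOX2, a factor of the sinus node. They held NPPA at 274 CPM against 325 in the other muscle cells (ratio 0.842, 0.746 to 0.947). NPPB was at 2.84 against 92.3 CPM, from 3 UMIs (17.2-fold lower without the cell of 982 UMIs), and CORIN was 3.27-fold lower, at 36.0 against 118 CPM. These cells were therefore low in NPPB and CORIN but within 1.5-fold of the others in NPPA.

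NPPA and NPPB were found together in 112, 139 and 72 muscle cells, more than their separate frequencies give, since 67.0, 74.4 and 37.4 would carry both if the genes were unrelated. Among NPPB cells with DMSO, 75.1% also had NPPA. NPPA and CORIN met in 719, 502 and 164 cells against 512, 479 and 146. With each cell thinned to 5000 UMIs, NPPA and NPPB met in 45, 68 and 25 cells against 25.2, 33.1 and 10.4, and NPPA and CORIN in 450, 227 and 39 against 304, 219 and 32.4. NPPB and CORIN met in 188, 124 and 88 cells against 183, 121 and 79.9, and after thinning in 72, 37 and 17 against 81.7, 43.3 and 17.5. The receptors NPR1 and NPR3 met in 11, 7 and 59 mesenchymal cells against 13.8, 6.72 and 49.4 if unrelated, and after thinning in 1, 1 and 22 against 2.44, 0.837 and 12.8.

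Among 25 other genes of the natriuretic peptide and cyclic GMP pathway, 18 were measured in muscle with CHIR against DMSO. By the same rule 7 stood higher and 7 lower, where 20.4% and 26.2% of all genes did, and their median log2 ratio was -0.10 beside -0.02 over all genes. PDE5A, the phosphodiesterase that breaks down cyclic GMP, was 6.71-fold higher (4.799 to 9.60), from 231 and 41 UMIs. PCSK6, the protease known to activate corin, was 2.79-fold higher (2.12 to 3.70). GUCY1B1, a subunit of the soluble guanylyl cyclase that answers to nitric oxide, stood at 2.01 CPM against 13.2, and its partner GUCY1A1 was 2.25-fold lower (1.99 to 2.55). PRKG1, the main cyclic GMP-dependent kinase, was close to level, with a ratio of 1.05 (0.843 to 1.30). In mesenchymal cells 1 of 20 measured stood higher and 10 lower (33% and 24.2% of all genes), at a median of -0.48 beside 0.14. MME, the enzyme neprilysin that degrades the peptides, was a mesenchymal transcript, at 28.5, 22.1 and 31.8 CPM against 1.35, 0.676 and 1.26 in muscle. DMSO against day 11 had 16 of 20 lower in muscle, where 53.4% of all genes were lower, at a median of -1.95 beside -0.67. PRKG1 was 16.3-fold lower (14.1 to 18.9). All genes of at least 100 kb had a median of -1.93 in that comparison. The part of gene length in these pathway values was not tested.

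Of 15 regulators of these genes, all were measured. In muscle 5 stood higher and 2 lower with CHIR than with DMSO (20.4% and 26.2% of all genes), at a median log2 ratio of -0.23 beside -0.02. TBX2 was 1.75-fold higher (1.63 to 1.88) and TBX3 2.28-fold higher (2.01 to 2.58). HEY2, a Notch target of ventricular muscle, was 3.71-fold lower (3.33 to 4.15). The activators NKX2-5, GATA4, TBX5 and MEF2C had ratios of 0.825, 0.734, 1.30 and 0.821, all under 1.5-fold either way. In mesenchymal cells 10 stood higher and 1 lower (33% and 24.2% of all genes), at a median of 0.71 beside 0.14. There TBX2 was 14.7-fold higher (11.8 to 18.4), TBX3 9.77-fold (8.84 to 10.8) and TBX5 5.30-fold.

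Patterns most like those of the members were sought over 13 library and class units of at least 50 cells, among 9451 genes that reached 20 CPM, by Pearson's r of log2(CPM + 1). The units share libraries and no p-value applies. NPPA was most like MPI (r = 0.982), HSPB3, MYH7B, MYL3 and LINC00881 (0.966), of which MYL3 and MYH7B encode a light chain and a heavy chain of muscle myosin. CORIN was most like KLHL41 (0.985), APOBEC2, COL11A2, MAN1C1 and VSTM2L (0.975). NPPB was most like ANKRD1 (0.925), a stretch-response gene of muscle, followed by OAZ1, ALKBH7, SDHAF3 and RAB9A. NPR1 was most like ADAM12 (0.935), and CALD1, MYRF and PDGFRB were also among its nearest genes. NPR3 was most like PITX1 (0.961), a homeobox gene, followed by FEN1, TCP1, HNRNPA1 and LYRM2. NPR2 did not reach 20 CPM in any unit. With 10 CPM added in place of 1, ADAM12 and PITX1 stayed first for NPR1 and NPR3. HSPB3, RAB9A and MAN1C1 then came first for NPPA, NPPB and CORIN. CALD1, MYRF and PDGFRB were no longer among the 5 nearest to NPR1, nor MYL3 among those of NPPA.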

How the data were processed

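The authors deposited 3 tables of raw counts (UMIs per gene in each cell). Per the labels' protocols, live cells were sorted and made into droplet libraries that read the 3' ends of transcripts. Per the submitters' processing notes, Cell Ranger 6.1.1 and GRCh38 were used, with R 4.1.0 and Seurat 4.3.0 named for day 11 alone. The handling of intronic reads was not given in the labels. The protocol text of the day 11 sample names day 15.

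Scrublet in scanpy 1.11.5, set to expect doublets at 0.06, marked 220 DMSO cells (5.48%), which were removed, but 1 at day 11 and 0 with CHIR, so it did not work there and doublets remained. Cells passed a gate at 40 (muscle), 10 (mesenchymal), 20 (endoderm) or 15 (endothelial) marker UMIs per 10000. Muscle scores between 20 and 80 were held by 661 cells at day 11, 715 with DMSO and 312 with CHIR. The gates were set after looking at marker distributions. UMIs were summed per class and divided by all UMIs of the class (CPM). Ratios have exact conditional binomial (Clopper-Pearson) intervals, levels exact Poisson and shares exact binomial ones, with 0.5 added to both counts before taking log2. A call is 1.5-fold or more with at least 20 UMIs over both libraries. Before shares were thinned to 5000 UMIs, 158, 68 and 26 shallower cells were left out. A count of 0 allows 3 UMIs. The ratio code was tested on simulated data. Values without the richest cell, marker-rich cells or SHOX2 cells were chosen after seeing the data. TMM factors came from edgeR 4.0.16 in R 4.3.3. NPPA-AS1 and CNGA3 were not measured in any comparison.

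The genes named were the 6 members, 25 pathway genes, 15 regulators and, for members reaching 20 CPM, the 5 genes most alike, of which 1 is not reported here. Members and lists were chosen with earlier results of these data known. The H3K27ac peaks were not used here.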

Additional observations from a re-analysis of the deposited data

Results flagged for a closer look

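NPPB moved in opposite directions in the 2 main cell classes between day 11 and day 15 with DMSO. The CPM ratio of DMSO against day 11 was 1.44 in muscle cells (1.36 to 1.53) and 0.115 in mesenchymal cells (0.111 to 0.119), so that both counting intervals lay away from 1 on opposite sides. Each class had 1 library a group, and the difference itself was not tested. The share of cells rich in smooth muscle markers was 26.9% at day 11 and 11.6% with DMSO in the mesenchymal class, against 0.855% and 1.54% in muscle, and its part in the result was not tested. Without the single DMSO muscle cell that held 982 UMIs of NPPB, the muscle level with DMSO was 46.8 CPM, below the 52.7 CPM of day 11 without its own highest cell. When cells past 2 gates were kept, the muscle ratio was 0.355, on the same side as in mesenchymal cells.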

How the results depend on the processing

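Each group had 1 library, so no result has a replicate check. No paired analysis was possible because each single-cell group has 1 library and the chromatin samples that share replicate numbers were not used.

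In muscle with CHIR against DMSO, all 10 alternatives kept the direction of NPPA, CORIN, NPPB and NPR3. NPPA was 7.93-fold to 9.29-fold lower, CORIN 1.98-fold to 2.51-fold lower and NPPB 1.66-fold to 3.74-fold lower. NPR3 was 14.4-fold to 43.9-fold higher, at a low muscle level whose source was not tested. NPR3 in mesenchymal cells ranged from 9.73-fold to 12.4-fold higher over 2 alternatives chosen after seeing the data, and NPPB from 2.22-fold to 11.1-fold lower. Of 205 ratios recomputed, 158 moved by less than their counting interval, 45 moved by more and 2 with a difference of at least 1.5-fold reversed: without cells rich in smooth muscle markers, CHIR against day 11 gave 1.65 for NPPB in muscle and 1.30 for NPPA in mesenchymal cells. NPPB with DMSO against day 11 in muscle, whose 1.44 is under 1.5-fold, also crossed 1, to 0.355 with cells past 2 gates kept and 0.889 without the richest cell. Of 84 counts of members, 9 moved by over 1.5 times. Higher members with CHIR against DMSO in muscle numbered 2 when cells past 2 gates were kept, which adds NPR1. Higher members with DMSO against day 11 in muscle numbered 2, which adds NPPB, with mitochondrial and ribosomal protein genes out of the totals, with TMM factors, with the muscle gate multiplied by 2, and without cells rich in smooth muscle markers or with SHOX2. The CHIR against day 11 comparison in muscle gave 2 higher without marker-rich cells and 3 lower with TMM factors, and in mesenchymal cells 3 lower when the totals omit mitochondrial and ribosomal protein genes. For these counts the cause was not tested. TMM factors added 0.05 to log2 ratios in muscle for CHIR against DMSO, 0.58 for DMSO against day 11 and 0.64 for CHIR against day 11. Of 36 shares of cells, 32 moved when cells were thinned. Depth limits NPR1 and NPR3 in DMSO muscle, with 4 and 5 UMIs.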
